A study of Mus musculus with 8 samples.

Results

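The genes described here encode the presynaptic vesicle and release machinery. They are 30 genes chosen by function: 9 vesicle proteins, 4 synaptotagmins, 6 SNARE proteins and complexins, 8 active zone proteins, 2 vesicular glutamate transporters and dynamin 1. All 30 had an entry among the 31417 genes counted, and all 30 passed the filter on low counts, which kept 16228 genes. Expression was measured by poly(A) RNA sequencing of whole hippocampus, 1 hippocampus per library, in mice aged 12 months. The 4 KO libraries came from mice labelled as Dclk3 knock out, and the 4 WT libraries from wild-type control mice. Dclk3 encodes doublecortin-like kinase 3, a brain-enriched serine/threonine kinase. The labels used here name neither the deleted part of Dclk3, nor the strain or sex, and do not say that each library is a separate animal. The p-values therefore measure the spread between these libraries, part of which may be technical.

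At a synapse, neurotransmitter is loaded into vesicles, the vesicles dock and are primed at the active zone, and calcium entry triggers their fusion. Fusion is carried out by SNARE proteins on the vesicle and on the plasma membrane, with synaptotagmins as calcium sensors and complexins as cofactors. Spent membrane is then recovered by endocytosis, in which dynamin cuts the new vesicle free. In the hippocampus most of these transcripts come from glutamatergic granule and pyramidal cells, and the proteins are carried to axon terminals that can lie far from the cell body. Transcripts of axons that enter from other regions are therefore largely absent from the dissected tissue.

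Libraries held 29301974 to 35268128 counts in KO and 30387045 to 36552757 counts in WT, and levels are given as CPM, which scale counts to the size of the library, here with TMM factors. Dclk3 itself had 8.19, 9.29, 5.92 and 7.45 CPM in KO replicates 1 to 4, against 23.0, 39.3, 20.8 and 23.5 CPM in WT replicates 1 to 4, so all 4 KO libraries lay below all 4 WT libraries for the targeted gene. Its log2 fold change was -1.79 (SE 0.22), and its adjusted p was 0.234 in the edgeR fit described next. Some libraries stood apart from the others of their genotype. The first principal component of log2 CPM placed KO replicate 1 at -26.1 and WT replicate 2 at 35.8, at its opposite ends. Summed levels of 7 choroid plexus markers ran from 185 to 3411 CPM in KO and from 69.2 to 2182 CPM in WT, with KO replicate 2 the highest. Relative to the mean of 8 libraries, the median gene with a longest transcript of 10 kb or more lay at 0.22 on the log2 scale in KO replicate 4 and at -0.16 in KO replicate 1.

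No gene of this machinery passed an adjusted p of 0.05 (edgeR quasi-likelihood test, Benjamini-Hochberg over all genes tested), where the background over all genes was also 0.00%. The lowest adjusted p among the 30 genes was 0.796. The fold changes lay mostly on one side: 24 of 30 were below 0, against 49.9% of all genes tested, with a median log2 fold change of -0.086 against 0.00029 for all genes tested. DESeq2 also called 0 of the 30, against 0.0224% of all genes it tested. At an unadjusted p under 0.05 in edgeR, where 6.16% of all genes passed in either direction, 4 of the 30 genes (Syn1, Syn2, Sv2b and Slc17a7) were lower in KO, where the background was 2.20%. None of the 30 was higher in KO at that threshold, where the background was 3.96%. In none of the 30 did the KO and WT libraries part completely, while all 4 KO libraries lay below all 4 WT libraries in 1.92% of genes and above them in 1.88%. Without KO replicate 1 or without WT replicate 4, none of the 30 genes had an unadjusted p under 0.05. With any 1 library left out, 23 to 25 of the 30 were below 0 and the median ranged from -0.11 to -0.053. The members were listed with earlier results of these data known, so the shared direction is a description. In whole tissue, fewer cells of a type and less RNA per cell cannot be told apart.

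**Figure D1:**
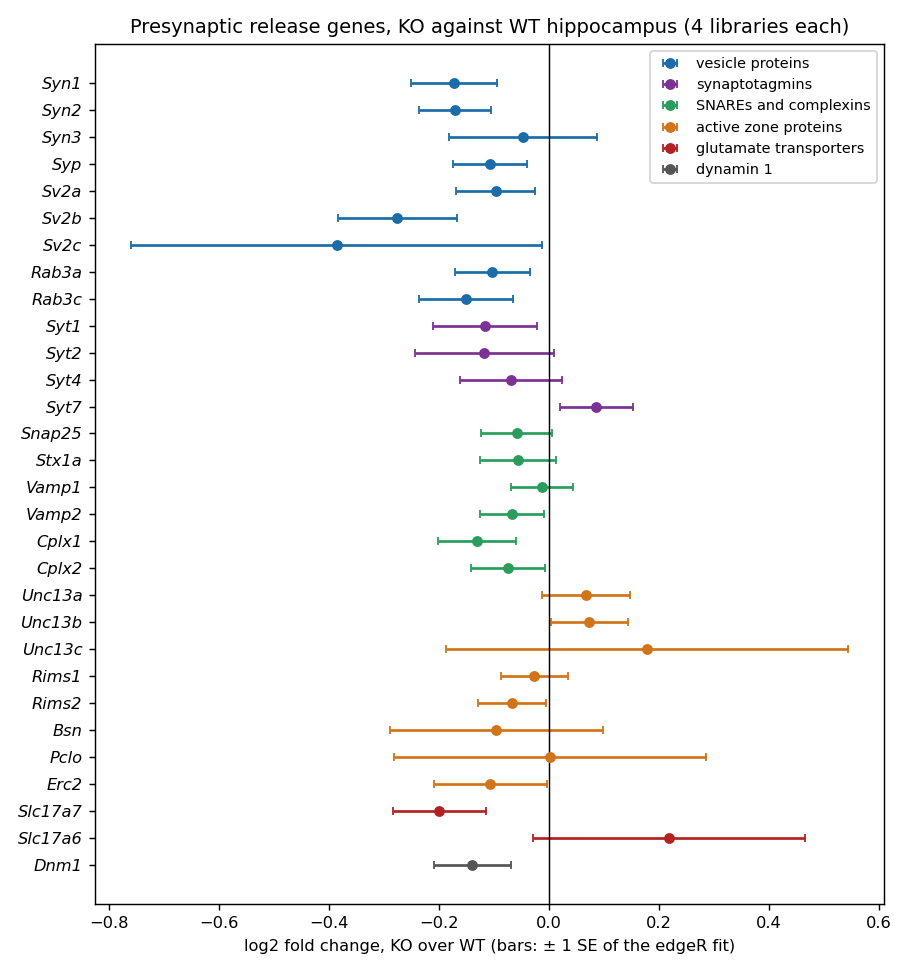
Log2 fold change of each of the 30 genes, KO over WT, on the x axis, with genes on the y axis coloured by role and bars of 1 SE from the edgeR fit. All 9 vesicle proteins and all 6 SNARE proteins and complexins lie below 0, while the 8 active zone proteins fall on both sides, 4 below and 4 above.

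The sequences just before the start sites of the 4 genes with an unadjusted p under 0.05 are shown here, since these genes were the farthest below 0 for their spread. The sequences are from RefSeq, build GRCm38.p6, 5′ to 3′ on the strand of the gene. Each ends at the RefSeq start site, except that of Syn1, which stops at the start of the longer GENCODE gene model. Capitals mark matches on either strand to the cyclic AMP response element (CRE, TGACGTCA), the GC box (GGGCGG), the TATA box (TATAAA) and, with up to 3 mismatches, the RE1 element of the neuronal gene repressor REST.
Syn1, chrX:20921005-20921168, minus strand: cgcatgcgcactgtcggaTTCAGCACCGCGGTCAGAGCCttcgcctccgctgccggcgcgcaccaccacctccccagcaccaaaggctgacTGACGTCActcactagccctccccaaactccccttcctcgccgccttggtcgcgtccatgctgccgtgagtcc
Syn2, chr6:115134652-115134901, plus strand: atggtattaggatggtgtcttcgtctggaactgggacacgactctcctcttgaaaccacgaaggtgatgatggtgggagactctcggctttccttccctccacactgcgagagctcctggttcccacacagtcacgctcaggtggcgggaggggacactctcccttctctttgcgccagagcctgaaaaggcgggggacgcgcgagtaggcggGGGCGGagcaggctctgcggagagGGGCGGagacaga
Sv2b, chr7:75309263-75309512, minus strand: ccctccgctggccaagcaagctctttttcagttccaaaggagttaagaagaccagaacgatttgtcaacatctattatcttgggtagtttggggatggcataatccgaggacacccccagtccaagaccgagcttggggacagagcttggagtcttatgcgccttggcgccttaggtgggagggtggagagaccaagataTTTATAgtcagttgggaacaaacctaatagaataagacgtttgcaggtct
Slc17a7, chr7:45163671-45163920, plus strand: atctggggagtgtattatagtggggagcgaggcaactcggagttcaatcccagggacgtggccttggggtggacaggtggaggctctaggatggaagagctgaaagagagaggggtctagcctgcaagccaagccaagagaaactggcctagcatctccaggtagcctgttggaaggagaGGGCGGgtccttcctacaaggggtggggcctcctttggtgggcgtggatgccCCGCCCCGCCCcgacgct
The Syn1 sequence holds a CRE and an RE1 match with 1 mismatch, that of Syn2 holds 2 GC boxes, that of Slc17a7 holds 3 GC boxes, the last 2 of which share a base, and that of Sv2b holds a TATA box. Among 32 windows of 250 bases before the starts of 24 of the 30 genes, 1 held a CRE, 19 a GC box, 2 a TATA box, both at starts of Sv2b, and 1 an RE1 match. Over 32851 such windows of all genes the shares were 1.55%, 32.7%, 12.4% and 0.0761%. The median GC content was 58.8% in the 32 windows and 52.4% in all windows, and its part in the GC box shares was not tested. These matches are letters in a window and do not show that a factor binds there. Promoter sequences of Syn3, Syt4, Syt7, Snap25, Vamp2 and Rims2 were not used here.

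Levels per kilobase of annotated exon spanned a 558-fold range within the machinery. At the top stood Cplx2, a complexin, at 439 CPM per kb, followed by the plasma membrane SNARE Snap25 at 361, the vesicle protein Syp at 323, the vesicle SNARE Vamp2 at 316 and the glutamate transporter Slc17a7 at 295 CPM per kb, as means of 8 libraries. The lowest was Syn3 at 0.787 CPM per kb, below Unc13b at 2.30 and the second glutamate transporter, Slc17a6, at 2.74 CPM per kb. Of the 29 pairs of neighbours in this order, 22 had ranges over the 8 libraries that overlapped. Whether the order of such pairs held within each library was not examined. Among the listed synaptotagmins, Unc13 proteins and RIM proteins, 1 member of each kind stood well above the others on this scale. This does not extend to whole families, since relatives outside the list were not placed on the scale. Among those relatives, Syt11 averaged 992 CPM over 5205 exon bases, and Rims4 averaged 86.0 CPM over 4962 exon bases. Syt1 stood at 226 CPM per kb against 62.6 for Syt4, 50.3 for Syt7 and 4.24 for Syt2. Unc13a stood at 28.8 against 3.18 for Unc13c and 2.30 CPM per kb for Unc13b. Rims1 stood at 30.9 against 5.58 CPM per kb for Rims2. The scale depends on the exon length: with the longest transcript in place of all exons, Syp led at 591 CPM per kb and Cplx2 took rank 5, while 9 of the 10 highest genes were shared.

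**Figure D2:**
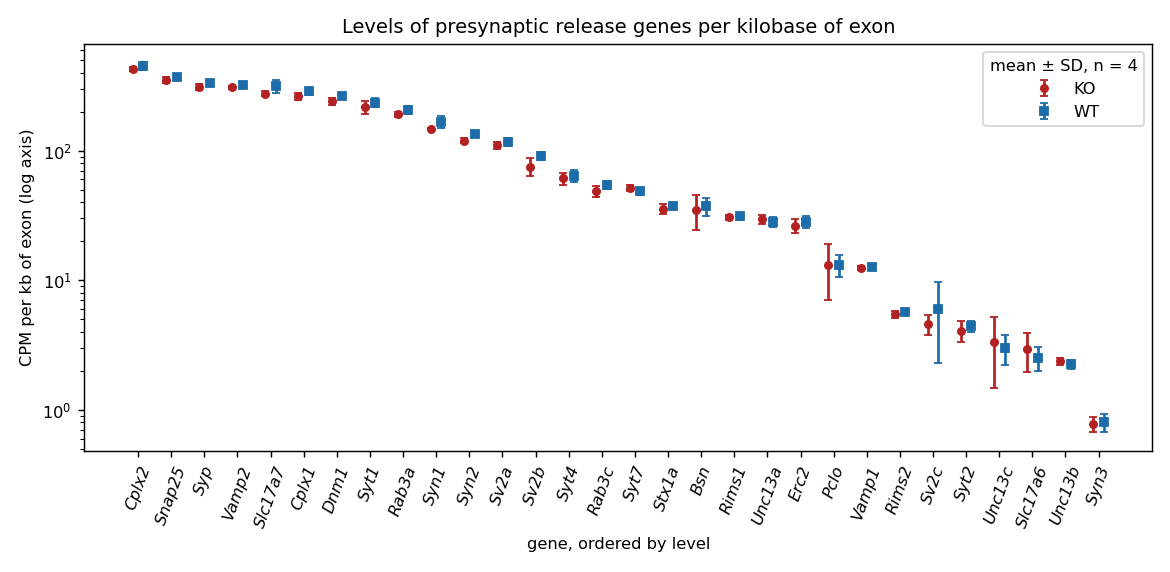
Mean level in CPM per kb of exon (log axis) for each of the 30 genes, ordered by level, with KO left of WT and bars of 1 SD over 4 libraries. Levels fall from 439 CPM per kb for Cplx2 to 0.787 for Syn3, a 558-fold range, beside which the differences between KO and WT means are small.

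All vesicle proteins, 9 of 9, had log2 fold changes below 0, though none passed the test. Their median was -0.15 and ranged from -0.18 to -0.11 with any 1 library left out. Synapsins coat vesicles and hold them in the reserve pool. Syn2 (ENSMUSG00000009394, mm10 6:115134902 to 115282006) had 806, 815, 840.5 and 889.9 CPM in KO replicates 1 to 4, against 910.4, 1004, 889 and 969 CPM in WT replicates 1 to 4. Of these, 3 KO libraries lay below every WT library, and KO replicate 4 exceeded only WT replicate 3. The log2 fold change of Syn2 was -0.17 (SE 0.066), with an unadjusted p of 0.0256 in the edgeR fit. Without WT replicate 2, the highest library, that p was 0.0651. Syn1 (ENSMUSG00000037217, mm10 X:20860511 to 20921004) had 480.4, 497, 495 and 482 CPM in KO replicates 1 to 4, against 547, 628, 486 and 541 CPM in WT replicates 1 to 4. The KO libraries were tightly grouped and 3 WT libraries lay above them, while WT replicate 3 fell among them. The log2 fold change of Syn1 was -0.17 (SE 0.078) with an unadjusted p of 0.04995 in edgeR, and that p was 0.147 without WT replicate 2. Syn3, the rarest synapsin, averaged 9.50 ± 1.29 CPM in KO and 9.82 ± 1.54 CPM in WT (mean ± SD, n = 4 each, here and below) and did not separate the genotypes. Its exons share 1733 bases with Timp3 on the other strand, so that its level is uncertain where counting ignored strand.

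The Sv2 glycoproteins sit in the vesicle membrane, and Sv2a is the binding site of the antiepileptic drug levetiracetam. Sv2b (ENSMUSG00000053025, mm10 7:75114894 to 75309262) had 509, 609.9, 674 and 740.3 CPM in KO replicates 1 to 4, against 706, 816, 738 and 806 CPM in WT replicates 1 to 4. KO replicates 1 to 3 lay below all WT libraries and KO replicate 4 lay within the WT range. The log2 fold change of Sv2b was -0.28 (SE 0.11), with an unadjusted p of 0.0289 in edgeR. Without KO replicate 1 it was -0.18, with an unadjusted p of 0.0548 in edgeR. Sv2a averaged 509 ± 32.2 CPM in KO and 545 ± 36.7 CPM in WT, and its groups overlapped at a log2 fold change of -0.097 (SE 0.072). Sv2c had 44.0, 40.9, 37.7 and 55.0 CPM in KO replicates 1 to 4, against 43.7, 112, 35.3 and 41.7 CPM in WT replicates 1 to 4. A single library, WT replicate 2, stood far above the other 7, which lay between 35.3 and 55.0 CPM. With that library the log2 fold change of Sv2c was -0.39 (SE 0.37), and without it 0.15, on the other side of 0. Striatal markers, which mark a region where Sv2c is abundant, summed to 134 CPM in WT replicate 2, the highest of the 8 libraries, with 122, 119 and fewer CPM in WT replicates 1, 3 and 4 and 111 to 129 CPM in KO libraries. KO replicate 2 came close at 129 CPM, with 40.9 CPM of Sv2c. The same WT library stood apart in the astrocyte marker Gfap, at 1805 CPM against 500.1 to 578 CPM in KO libraries and 442 to 567 CPM in the other WT libraries. Aqp4, another astrocyte marker, stood at 375 CPM there, against 214 to 252 CPM in KO libraries and 214 to 228 CPM in the other WT libraries. Other astrocyte markers did not follow. Gja1 was lowest in that library, at 201 CPM, against 293 to 345 CPM in KO libraries and 310 to 339 CPM in the other WT libraries. Slc1a3 was also lowest there, at 833 CPM, against 902 to 1044 CPM in KO libraries and 887 to 987 CPM in the other WT libraries. Aldh1l1 and Slc1a2 lay within the range of the other libraries. Over all 6 astrocyte markers, Gfap included, the sum was 7977 CPM in WT replicate 2. It was 6429 to 7644 CPM in KO libraries and 6325 to 7518 CPM in the other WT libraries. The part of these markers in the values of Sv2c, Syn1, Syn2 and Slc17a7, all highest in WT replicate 2, was not tested.

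Syp, or synaptophysin, an abundant membrane protein of synaptic vesicles, averaged 1619 ± 93.7 CPM in KO and 1744 ± 79.4 CPM in WT, a log2 fold change of -0.11 (SE 0.067). The small GTPases Rab3a and Rab3c ride on vesicles and bind RIM proteins at the active zone. Rab3a averaged 426 ± 18.1 CPM in KO and 458 ± 32.3 CPM in WT, a log2 fold change of -0.10 (SE 0.068). Rab3c averaged 590.5 ± 58.8 CPM in KO and 655 ± 47.8 CPM in WT, a log2 fold change of -0.15 (SE 0.085). The KO and WT libraries of both genes overlapped.

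Of the 4 synaptotagmins, 3 lay below 0, and the median of the 4 log2 fold changes was -0.092, which was -0.026 without KO replicate 1, -0.044 without KO replicate 2 and -0.04 without WT replicate 4. Syt1, the main fast calcium sensor of forebrain synapses, had 1551, 1739.8, 1938 and 2019 CPM in KO replicates 1 to 4, against 1899.7, 1821, 1933 and 2201 CPM in WT replicates 1 to 4. KO replicates 1 and 2 lay below every WT library and KO replicates 3 and 4 within the WT range. Syt1 had a log2 fold change of -0.12 (SE 0.095), which was -0.045 without KO replicate 1 and -0.058 without WT replicate 4. Syt2, the fast sensor that prevails in the hindbrain and in some inhibitory neurons, averaged 31.1 ± 5.70 CPM in KO and 33.7 ± 3.31 CPM in WT, a log2 fold change of -0.12 (SE 0.13). Syt4, a synaptotagmin found largely on dense-core vesicles, averaged 238 ± 24.9 CPM in KO and 249.5 ± 24.7 CPM in WT, a log2 fold change of -0.069 (SE 0.093). Syt7, a slower sensor with high calcium affinity that serves facilitation and asynchronous release, lay on the other side of 0. It had 405, 390.3, 396 and 361 CPM in KO replicates 1 to 4, against 390.0, 339, 354 and 379 CPM in WT replicates 1 to 4. The log2 fold change of Syt7 was 0.086 (SE 0.067), and KO replicate 4, WT replicate 1 and WT replicate 4 fell within the range of the other genotype.

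SNARE proteins and complexins lay below 0 in 6 of 6 genes, from -0.131 for Cplx1 to -0.013 for Vamp1, and their median log2 fold change was -0.063. Snap25 and Stx1a are the SNARE proteins of the plasma membrane, and Vamp2 and Vamp1 those of the vesicle. Snap25 averaged 2400.2 ± 129 CPM in KO and 2501 ± 85.6 CPM in WT, a log2 fold change of -0.059 (SE 0.064). Stx1a averaged 95.2 ± 8.67 CPM in KO and 99.0 ± 3.62 CPM in WT, a log2 fold change of -0.056 (SE 0.069). On the vesicle side, Vamp2 averaged 1176 ± 36.3 CPM in KO and 1232 ± 41.2 CPM in WT, a log2 fold change of -0.068 (SE 0.058). Vamp1, more prominent in brainstem and spinal cord, averaged 127 ± 5.14 CPM in KO and 128 ± 6.27 CPM in WT, a log2 fold change of -0.013 (SE 0.057). The KO and WT libraries overlapped in all 4. Cplx1, a complexin expressed in inhibitory as well as some excitatory neurons, had 599, 543, 619 and 543 CPM in KO replicates 1 to 4, against 663, 585, 615 and 659 CPM in WT replicates 1 to 4. KO replicates 2 and 4 lay below every WT library and KO replicates 1 and 3 within the WT range, with a log2 fold change of -0.13 (SE 0.071). Cplx2, the prevailing complexin of excitatory forebrain neurons, averaged 2109 ± 78.5 CPM in KO and 2222 ± 144 CPM in WT, a log2 fold change of -0.075 (SE 0.067).

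Active zone proteins were split: 4 of 8 lay below 0, and their median log2 fold change was -0.013. That median lay at 0.038 without WT replicate 4 and at -0.081 without KO replicate 4. Whether it differs from the median of the vesicle proteins was not tested. The Unc13 proteins prime docked vesicles for fusion. Unc13a averaged 372 ± 27.2 CPM in KO and 355 ± 30.4 CPM in WT, a log2 fold change of 0.067 (SE 0.080). Unc13b averaged 53.7 ± 3.17 CPM in KO and 51.1 ± 4.0 CPM in WT, a log2 fold change of 0.073 (SE 0.070). Both overlapped between genotypes. The RIM proteins Rims1 and Rims2 tether calcium channels and vesicles. Rims1 averaged 225 ± 9.07 CPM in KO and 229 ± 13.3 CPM in WT, a log2 fold change of -0.027 (SE 0.061). Rims2 averaged 56.6 ± 3.12 CPM in KO and 59.3 ± 3.57 CPM in WT, a log2 fold change of -0.068 (SE 0.062). Erc2, a scaffold of the ELKS family, averaged 256 ± 31.9 CPM in KO and 276 ± 31.2 CPM in WT, a log2 fold change of -0.11 (SE 0.10). That of Erc2 was -0.031 without WT replicate 2, -0.047 without KO replicate 1 and -0.19 without KO replicate 4.

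Unc13c, best known from cerebellar granule cells, had 54.2, 23.5, 19.0 and 21.7 CPM in KO replicates 1 to 4, against 25.9, 16.9, 31.8 and 30.5 CPM in WT replicates 1 to 4. KO replicate 1 stood above all other libraries and the other 3 KO libraries lay within the WT range. The log2 fold change of Unc13c was 0.18 (SE 0.37) with all libraries and -0.29 without KO replicate 1. The same library was the highest of the 8 for Slc17a6, at 22.4 CPM, and for the summed markers of 2 neighbouring regions. Markers of thalamus and habenula summed to 60.7 CPM in KO replicate 1, against 47.1 to 51.9 CPM in the other KO libraries and 41.7 to 50.6 CPM in WT libraries. Neocortical markers summed to 149.5 CPM there, against 119 to 131 CPM in the other KO libraries and 104 to 126 CPM in WT libraries. Not every marker followed these sums. Tcf7l2, at 8.41 CPM against 3.15 to 4.54 CPM elsewhere, Prkcd, Rorb and Scnn1a were highest in KO replicate 1. So was Cux2, at 42.5 CPM against 24.3 to 28.6 CPM elsewhere. Lef1, Zic4, Rgs16, Fezf2 and Lamp5 were each higher in another library, and Gpr151 was lowest in KO replicate 1, at 0.571 CPM. Of the 12 markers listed for these regions only Gbx2 was too low to be tested and the others were above 0 in every library. The part of such tissue in the Unc13c value was not tested.

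Bsn and Pclo encode bassoon and piccolo, giant scaffolds that organise the active zone. Bsn had 454, 477, 493 and 805 CPM in KO replicates 1 to 4, against 661, 545, 483 and 693 CPM in WT replicates 1 to 4. Pclo had 209.9, 221, 248 and 492 CPM in KO replicates 1 to 4, against 291, 283, 229 and 367 CPM in WT replicates 1 to 4. In both genes KO replicate 4 was the highest of the 8 libraries, KO replicates 1 and 2 lay below every WT library, and KO replicate 3 lay just above the lowest of them. With all libraries the log2 fold change was -0.096 (SE 0.19) for Bsn and 0.0012 (SE 0.28) for Pclo. Without KO replicate 4 it was -0.33 for Bsn and -0.37 for Pclo, with an unadjusted p of 0.0212 for Bsn and 0.0279 for Pclo and an adjusted p of 0.392 for Bsn and 0.418 for Pclo in edgeR. Their longest annotated transcripts, of 15938 bases for Bsn and 20084 bases for Pclo, are among the 400 tested genes with a transcript of 10 kb or more. Relative to the mean of 8 libraries, the median of those 400 genes was -0.16, -0.12, -0.018 and 0.22 in KO replicates 1 to 4, and 0.014, 0.012, -0.072 and 0.12 in WT replicates 1 to 4 on the log2 scale. For the 3669 genes with transcripts under 2 kb the values were 0.091, 0.057, -0.0065 and -0.067 in KO, and 0.043, -0.068, 0.0027 and -0.029 in WT. KO replicate 4 and WT replicate 4 were thus the highest for long transcripts, as they were for Bsn and Pclo but not for the other members of that length. Unc13a was highest in KO replicate 3, at 0.13 relative to its mean against 0.048 in KO replicate 4 and 0.12 in WT replicate 4. Unc13b was highest in KO replicate 2, at 0.16, and stood at -0.02 in both KO replicate 4 and WT replicate 4. The part of transcript length in the values of these genes was not tested.

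**Figure D3:**
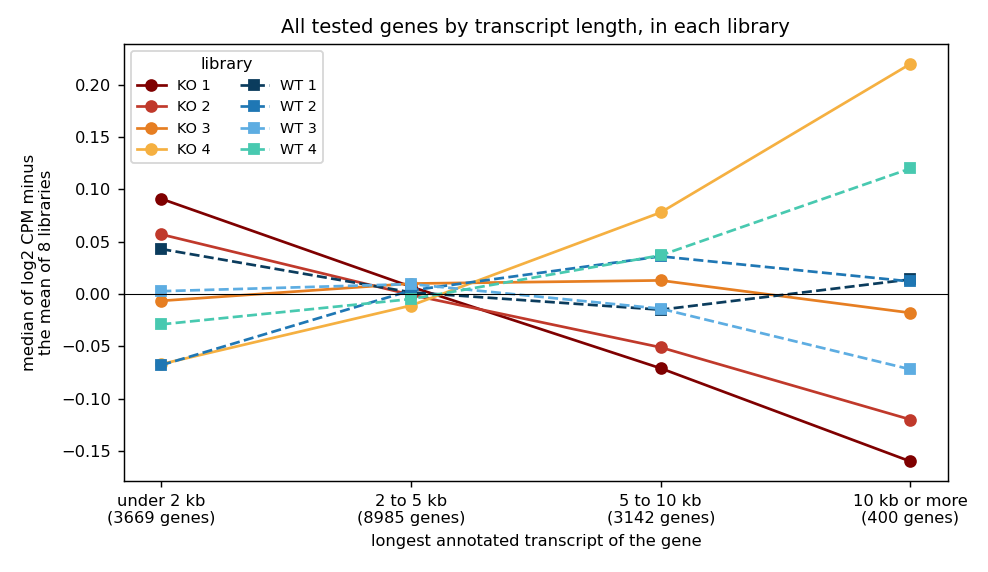
Median over genes of log2 CPM minus the mean of the 8 libraries (y axis) in 4 classes of longest annotated transcript (x axis), with 1 line per library. KO replicate 4 ends highest, at 0.22, and KO replicate 1 lowest, at -0.16, in the class of 10 kb or more, which holds Bsn, Pclo, Unc13a and Unc13b.

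The glutamate transporters load vesicles with glutamate. Slc17a7 (ENSMUSG00000070570, mm10 7:45163949 to 45176142), also known as VGLUT1, is the transporter of hippocampal and cortical excitatory neurons. It had 1395, 1537, 1511 and 1490.0 CPM in KO replicates 1 to 4, against 1669, 1966, 1501 and 1679 CPM in WT replicates 1 to 4. Of the WT libraries, 3 lay above all KO libraries, while WT replicate 3 fell among the KO values. The log2 fold change was -0.20 (SE 0.084), with an unadjusted p of 0.0388 in edgeR that became 0.112 without WT replicate 2. Slc17a6, or VGLUT2, prevails in thalamic and other subcortical neurons. It had 22.4, 16.6, 15.1 and 9.34 CPM in KO replicates 1 to 4, against 11.4, 11.2, 16.7 and 15.4 CPM in WT replicates 1 to 4. The KO libraries held both the highest and the lowest value, and the log2 fold change of 0.22 (SE 0.25) became 0.0059 without KO replicate 1. Dnm1, the neuronal dynamin, had 1153, 1251, 1338 and 1309 CPM in KO replicates 1 to 4, against 1345, 1415, 1324 and 1481 CPM in WT replicates 1 to 4. KO replicates 1, 2 and 4 lay below every WT library and KO replicate 3 just above the lowest of them, with a log2 fold change of -0.14 (SE 0.070).

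**Figure D4:**
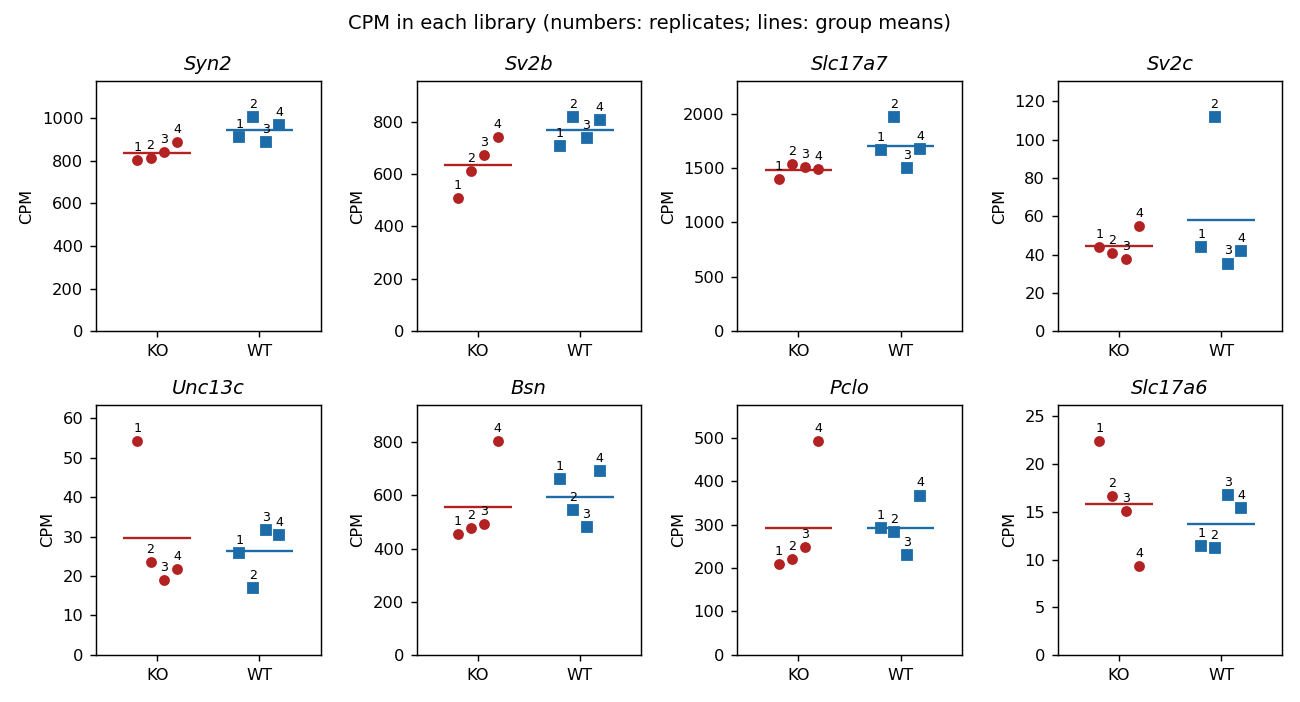
CPM in each of the 4 KO libraries (left in each panel) and 4 WT libraries (right) for 8 of the genes, with replicate numbers and group means as lines. Syn2, Sv2b and Slc17a7 are lower on average in KO with some overlap, while 1 library sets the mean of a group in Sv2c (WT replicate 2), Unc13c (KO replicate 1), Bsn and Pclo (KO replicate 4).

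Ratios between relatives within a library do not depend on the scaling, so 14 were compared between genotypes by an exact two-sided permutation test, adjusted over the 14. None passed, with adjusted p of 0.971 or 1. No ratio could have passed alone: the smallest p that 4 against 4 libraries allow is 0.0286, which is 0.4 once adjusted for a single ratio of 14. The lowest unadjusted p was 0.114, for Sv2b over Sv2a, whose log2 ratio of counts was 0.303 ± 0.18 in KO and 0.492 ± 0.053 in WT. Syt7 over Syt1 stood at -2.22 ± 0.23 in KO and -2.42 ± 0.11 in WT (exact permutation p = 0.2). Slc17a6 over Slc17a7 stood at -6.61 ± 0.56 in KO and -6.98 ± 0.43 in WT (exact permutation p = 0.4). The remaining 11 ratios differed by 0.14 or less on the log2 scale, as with Syn1 over Syn2 at -0.777 ± 0.075 in KO and -0.78 ± 0.09 in WT.

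Single libraries were low or high for many of the 30 genes at once. KO replicate 1 was the lowest of the 8 libraries for 14 of the 30 genes, among them Syt1, Snap25, Syp and Dnm1, while it was the lowest for 22.3% of all genes tested. WT replicate 4 was the highest for 10 and WT replicate 2 for 8 of the 30, against 11% for WT replicate 4 and 18.9% for WT replicate 2 over all genes tested. Summed over the 30 genes, the levels were 17567, 18176, 19371 and 19744 CPM in KO replicates 1 to 4, and 20068, 20242, 19087 and 21194 CPM in WT replicates 1 to 4. The sums overlapped between genotypes, since WT replicate 3 lay below KO replicates 3 and 4. The tightest genes were Syn1 in KO, with a coefficient of variation of 1.79%, and Vamp2, at 3.09% in KO and 3.34% in WT. The widest were Unc13c in KO at 55.8% and Sv2c in WT at 61.7%.

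**Figure D5:**
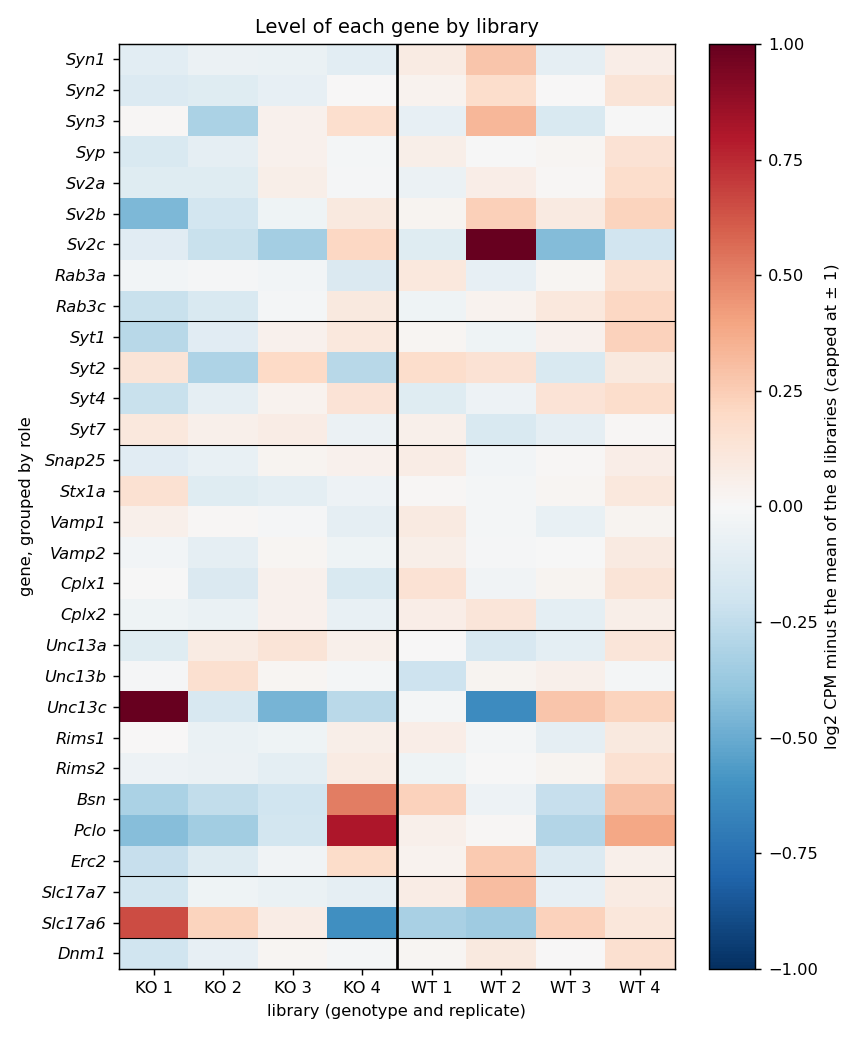
Log2 CPM of each gene minus its mean over the 8 libraries, as colour (red above, blue below, capped at 1 in either direction), with KO libraries left and WT libraries right and genes grouped by role. KO replicate 1 is blue in most rows and WT replicate 4 pale red in most, while the darkest cells are those of Sv2c in WT replicate 2, Unc13c in KO replicate 1 and Pclo in KO replicate 4.

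Another 62 genes of the same pathway were listed by role, of which 61 had an entry and 60 were tested. In these, 45 of 60 had a log2 fold change below 0, against 49.9% of all genes tested, with a median of -0.10, and none passed an adjusted p of 0.05 in edgeR. Among them, 6 were lower and 0 higher at an unadjusted p under 0.05 in edgeR, where the shares over all genes were 2.20% lower and 3.96% higher. In 6 of the 60 the libraries did not overlap between the genotypes, 5 lower and 1 higher in KO, where the shares over all genes were 1.92% and 1.88%. After their values were seen, the non-overlapping genes were picked out as Snap47, Syngr1, Slc6a17, Syt6 and Sh3gl2 on the lower side and Synpr on the higher side. Synpr, a vesicle protein of mossy fibre terminals, averaged 215 ± 7.17 CPM in KO and 199 ± 2.58 CPM in WT. Syngr1, a synaptogyrin, averaged 614 ± 14.9 CPM in KO and 681 ± 44.7 CPM in WT. Nsf, the ATPase that takes SNARE complexes apart, averaged 1280.0 ± 146 CPM in KO and 1436 ± 81.7 CPM in WT. Synj1, a phosphatase of vesicle uncoating, averaged 561 ± 81.6 CPM in KO and 630.0 ± 51.7 CPM in WT. Rph3a, a Rab3 effector, averaged 386 ± 11.1 CPM in KO and 361 ± 23.9 CPM in WT. Rimbp2, which links RIM proteins to calcium channels, averaged 156 ± 5.33 CPM in KO and 168 ± 34.1 CPM in WT. The GABA transporter of vesicles, Slc32a1, averaged 53.7 ± 2.89 CPM in KO and 58.3 ± 5.55 CPM in WT. The third glutamate transporter, Slc17a8, averaged 8.05 ± 2.28 CPM in KO and 7.27 ± 0.917 CPM in WT. By role, the medians were -0.10 for SNARE cofactors, -0.12 for vesicle proteins, -0.12 for calcium sensors, -0.027 for active zone proteins and -0.12 for endocytosis proteins.

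Cell type markers were summed in the same libraries. None of 87 marker genes tested passed an adjusted p of 0.05 in edgeR, where the share over all genes was also 0.00%. Of 16 marker lists, 2 had summed levels that did not overlap between genotypes, 1 lower and 1 higher in KO. Among single genes tested, 1.92% lay wholly lower and 1.88% wholly higher in KO. No such share was computed for sums over other lists. Markers of dentate granule cells summed to 558 to 599 CPM in KO and 452 to 553 CPM in WT, with 9 of 9 genes above 0. Markers of GABA neurons summed to 802 to 834 CPM in KO and 888 to 935 CPM in WT, with 5 of 7 below 0. Markers of CA1 pyramidal cells were all below 0, 6 of 6, and summed to 685 to 871 CPM in KO and 769 to 904 CPM in WT. The 5 markers of CA3 pyramidal cells, all below 0, summed to 282 to 388 CPM in KO and 327 to 375 CPM in WT. General neuronal markers summed to 3455 to 4207 CPM in KO and 3668 to 4159 CPM in WT, with 5 of 5 below 0. Their sum was lowest in KO replicate 1, at 3455 CPM, close to 3498 CPM in KO replicate 2. Singly, Nefl and Eno2 were lowest in KO replicate 1, Tubb3 and Map2 in KO replicate 2, and Rbfox3 in KO replicate 4. Markers of several glial and other non-neuronal cells lay on the other side of 0. Oligodendrocyte markers, 6 of 6 above 0 with a median of 0.16, summed to 4077 to 4576 CPM in KO and 3310 to 4748 CPM in WT. Microglial markers, 5 of 5 above 0 with a median of 0.031, summed to 382 to 433 CPM in KO and 366 to 417 CPM in WT. Choroid plexus markers were above 0 in 7 of 7 genes, with a median of 0.38. Other non-neuronal lists went the other way or were split. Oligodendrocyte precursor markers were below 0 in 2 of 2 genes and meningeal markers in 3 of 4, with medians of -0.059 and -0.078. Astrocyte markers were above 0 in 4 of 6 genes, with a median of 0.052. The part of these cell types in the levels of the release genes was not tested.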

How the data were processed

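The authors deposited 1 table of raw counts per Ensembl gene, with 1 column per library and no normalization, per the file headers. The submitters' processing notes name bcl2fastq 2.17.1.14 and build mm10. For the aligner, the counter and its strand setting, the sources used here give no name. Of the 30 genes, 11 share exon bases with a gene on the other strand and 1 with a gene on the same strand. Libraries were stranded, made from 1000 ng of RNA, per the labels' protocols. Reads carried no molecular identifiers, so counts include PCR copies.

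The test of KO against WT was that of edgeR 4.0.16 (R 4.3.3), with TMM scaling, filterByExpr, a robust quasi-likelihood test and Benjamini-Hochberg adjustment, tested on simulated data. An SE is the log2 fold change divided by the square root of F. Ratios added 0.5 to each count. Symbols matched 31292 of 31417 gene IDs, and Vamp7 had no match. Lengths and positions came from GENCODE M21 (mm10). Pairs of libraries within a genotype differed beyond counting noise, with a chi-square per degree of freedom of 8.85 to 40.9. Members, lists and tests were chosen with earlier results of these data known. All 30 members, Dclk3 and 8 fixed genes of the wider pathway were to be named, of which 2 of the 8 are not reported here. Alternatives were DESeq2 1.42.0, limma-voom (limma 3.58.1), other scalings and filters, a block by replicate number, and each library left out.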

Additional observations from a re-analysis of the deposited data

Results flagged for a closer look

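In 88 groups of 4 libraries (30 genes and 14 ratios in each genotype), 7 held a library whose gap to its nearest neighbour took most of the group's range, where chance gives about 1 in 20 groups. KO replicate 1 had 54.2 CPM of Unc13c, against 19.0 to 23.5 CPM in the other KO libraries. KO replicate 4 had 804.5 CPM of Bsn, against 454 to 493 CPM, and 492 CPM of Pclo, against 209.9 to 248 CPM in the other KO libraries. The same library had 399 CPM of Rab3a, below the 434 to 438 CPM of the other KO libraries. WT replicate 2 had 112 CPM of Sv2c, against 35.3 to 43.7 CPM in the other WT libraries. The log2 ratio of Syn3 over Syn2 was -6.72 in KO replicate 2, below -6.41 to -6.37 in the other KO libraries. It was -6.38 in WT replicate 2, above -6.68 to -6.65 in the other WT libraries.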

How the results depend on the processing

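No gene of the machinery was called under any of the 16 alternatives. Over all genes, edgeR called 0, DESeq2 called 5 (Dclk3, Col6a4, Eml5, Ftx and Zcchc7), the fit with a replicate block 1 (Dclk3), and fits without 1 library 0 to 1. Genes with an unadjusted p under 0.05 numbered 1000 in edgeR, 1505 in limma-voom and 556 to 1777 with 1 library left out: 640 without KO replicate 2, 1777 without KO replicate 4 and 556 without WT replicate 4. Members below 0 numbered 23 to 25 and their median was -0.11 to -0.053 with 1 library left out. Whether equal replicate numbers pair a KO with a WT library is not known here. Same-numbered deviations correlated at 0.139, 0.116, -0.219 and -0.0142, which cannot settle it. With the replicate block 25 members lay below 0 with a median of -0.085. The ratios gave 0 calls in that pairing, where no p below 0.125 is possible, and none with 1 library left out, where no p below 0.0571 is possible. Single genes crossed 0 when 1 library was left out, with a shift beyond their SE: Unc13c (-0.29), Pclo (-0.37) and Sv2c (0.15). The cause was not tested. In all, with 1 library left out, 22 values of single genes and ratios crossed 0 (single genes by more than their SE) and 330 did not. Every library held at least 233 counts of each member, the lowest being Syn3 in KO replicate 2. The log2 fold changes of members within 0.1 of 0 moved by over 1.5 times with 1 library left out in many cases, such as Syt4 (-0.13 to -0.0067), Rims1 (-0.054 to 0.00018), Vamp1 (-0.033 to 0.016) and Syn3 (-0.11 to 0.069).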
